A study of Mus musculus with 12 samples.

Results

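Cytoplasmic ribosomal protein genes were followed in macrophages sorted from the peritoneal cavity of mice with zymosan-induced peritonitis. A gene was a member if its Ensembl identifier belonged to a protein-coding gene with a symbol beginning Rpl or Rps and a digit, or to Rpsa, Rplp0, Rplp1 or Rplp2, leaving out the Rps6k kinases and pseudogenes. It also had to reach an average of 3 normalized counts across the 6 libraries of its subpopulation. Of the 86 genes with such names among 47643 listed identifiers, 83 were members in F4/80lo cells and 83 in F4/80hi cells, and 82 were members in both. Rpl10l and Rpl39l, copies of Rpl10 and Rpl39 known from testis, were under the minimum in both subpopulations, Rpl3l with a mean of 2.99 was under it in F4/80lo cells, and Rpl24 with a mean of 1.19 was under it in F4/80hi cells. Just inside the minimum were Rpl24 in F4/80lo cells with a mean of 3.37 and Rpl3l in F4/80hi cells with a mean of 3.18. The symbols also admit Rps19bp1, whose product binds the S19 protein and is not part of the ribosome, and Rpl7l1, a paralogue found in ribosome precursors.

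Female C57BL/6 mice, 8 to 12 weeks old, received 5 mg/kg zymosan A into the peritoneum, and cells were taken on day 6. From day 1 on they were injected daily with either 25 mg/kg CIII, an inhibitor of the prostaglandin E2 synthase mPGES-1, or the vehicle without inhibitor (VEH, containing 1% Tween-80, 0.5% carboxymethyl cellulose and 0.9% NaCl). All mice thus had peritonitis, and neither untreated mice nor a genetic deletion of mPGES-1 is among these groups. F4/80lo macrophages were sorted as CD45+ CD11b+ cells with low F4/80 and MerTK and high MHC class II, with neutrophils gated away by Ly6G, and F4/80hi macrophages as CD45+ CD11b+ cells with high F4/80 and MerTK. In the study's gating scheme dendritic cells, positive for CD11c and MHC class II, were set aside before these steps. Each combination of treatment and subpopulation has 3 libraries, numbered 1 to 3. The labels do not say whether a library is 1 mouse, so p-values measure the spread between libraries.

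A cytoplasmic ribosome has a small (40S) subunit, which reads the mRNA, and a large (60S) subunit, which forms the peptide bond. Each subunit holds ribosomal RNA and a fixed set of proteins, named Rps for the small and Rpl for the large subunit, most of them present once per ribosome. Their mRNAs are among the most abundant in a growing cell. Many begin with a C followed by a run of pyrimidines, the 5′ terminal oligopyrimidine or TOP motif, through which the mTOR pathway controls their translation as a group. Macrophages that take up dying cells or switch their activation state change both growth signalling and mitochondrial metabolism, and the synthesis of ribosomes is a large part of the cost of growth.

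The run of pyrimidines can be seen in the genomic sequence around the annotated start. RefSeq windows (build GRCm38.p6) were found for 64 of the 84 genes that were members in either subpopulation. In the following windows 15 bases before the annotated start are followed by the first 15 bases of the transcript, the sequence is given on the strand of the gene, and capitals mark the longest run of at least 6 C or T letters. The first 6 were chosen because such a run covers the start of genes described below, and the last 3, Rpsa, Rpl7l1 and Rps19bp1, because no such run lies in their window.
Rpl38 (chr11:114668565-114668594, plus strand): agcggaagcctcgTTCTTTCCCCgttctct
Rpl28 (chr7:4792950-4792979, plus strand): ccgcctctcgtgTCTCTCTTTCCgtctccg
Rplp2 (chr7:141447636-141447665, plus strand): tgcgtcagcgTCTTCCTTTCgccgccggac
Rpl35 (chr2:39005117-39005146, minus strand): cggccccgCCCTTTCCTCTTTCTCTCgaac
Rps6 (chr4:86857353-86857382, minus strand): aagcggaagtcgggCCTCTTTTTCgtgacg
Rps27 (chr3:90213634-90213663, minus strand): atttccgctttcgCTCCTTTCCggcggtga
Rpsa (chr9:120127751-120127780, plus strand): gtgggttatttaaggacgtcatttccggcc
Rpl7l1 (chr17:46782642-46782671, minus strand): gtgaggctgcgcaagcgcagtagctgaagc
Rps19bp1 (chr15:80264292-80264321, minus strand): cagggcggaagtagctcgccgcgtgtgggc

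A run of at least 6 C or T letters on the strand of the gene was present in 51.3% of the 76 windows of members, against 29.2% of all 32851 windows. On the opposite strand the same run was present in 9.21% of the members' windows and in 32.4% of all windows. The letters CTTTC, a common core of TOP starts, were present from 20 bases before to 30 bases after the start in 28.9% of the members' windows and 6.57% of all windows on the strand of the gene, and in 36.8% and 12.5% when both strands were searched. The letters CCGGAAG, a core to which ETS factors bind, were present on either strand in 34.2% of the members' windows of 300 bases and in 8.86% of all. The letters TATAAA within 50 bases before the start were present on either strand in 1.32% and 3.5%, respectively. CTTTC can lie inside the longer run, so these shares are not independent. Rpsa, shown above without a run, had CTTTC on its strand in this stretch. Taking for each gene the window nearest its annotated 5′ end, the median log2 fold change in F4/80hi cells was −1.23 for the 35 genes with a run and −1.10 for the 29 genes without one, Rpl24 without a value among them.

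Depth ran from 426624 reads on genes (CIII number 2 of F4/80lo) to 3389448 (VEH number 3 of F4/80lo). The macrophage markers Adgre1, Mertk and Itgam were present in all 12 libraries. Both libraries numbered 3 of F4/80hi had 350.6 (CIII) and 403.5 (VEH) normalized counts of Adgre1, the F4/80 antigen, against 1025 to 1207 in the other libraries of F4/80hi, and VEH number 3 of F4/80hi had 1321 counts of Ccr2, a monocyte receptor, against 18.3 to 671.7 in the others. VEH number 3 of F4/80lo had 679.8 counts of the MHC class II gene H2-Aa, a sorting criterion for these cells, against 4100 to 7750 in the others. Reads of Gm42418, a gene that overlaps ribosomal RNA sequence, made up 14.3% and 7.82% of the reads in VEH number 3 of F4/80lo and F4/80hi, 2.65% and 2.86% in CIII number 3, and at most 0.579% in the other libraries, and the mitochondrial share was highest in VEH number 3 of F4/80hi (16.1%). The libraries numbered 3 therefore stand apart, and results without them are given below. The neutrophil list summed to 24.8 to 90.1 counts in VEH and 6.01 to 14.4 in CIII libraries of F4/80hi, with Camp, Elane, Ly6g, Mpo and Ngp at 0 in all of them, so the treatments did not overlap on this list, and its part in the results was not tested. The monocyte-derived list (6 genes) summed to 3949 to 16648 counts in VEH and 11614 to 23275 in CIII of F4/80hi, which overlap, but it was higher in CIII within each number, with a median log2 fold change of 1.16. Of its 6 genes 4 were higher and 2 lower (down to −0.85), and 3 were higher at p under 0.05 in limma's test once the number was a block (532 of 10499 genes overall), or 2 without it (135 overall). The list of resident large peritoneal macrophages (6 genes) summed to 165.6 to 2677 in VEH and 283.4 to 1484 in CIII of F4/80hi. Of its 6 genes 5 were lower and 1 higher, with a median log2 fold change of −0.43. Its median differences within numbers 1, 2 and 3 were −0.58, −0.96 and 0.86. In F4/80lo libraries the monocyte-derived list summed to 4223 to 14900 counts in VEH and 12198 to 19461 in CIII, also higher in CIII within each number. The part of these lists in the results was not tested, nor whether the monocyte-derived list followed cell origin or the treatment itself. The B cell, T and NK cell, dendritic cell, and eosinophil and mast cell lists summed to at most 57.8 counts in F4/80hi libraries, and mesothelial markers to at most 1.05. In F4/80lo libraries the B cell list summed to 23 to 174.5 counts, the dendritic cell list to 28.3 to 291.4, the T and NK cell list to at most 32, the neutrophil list to at most 30 and the eosinophil and mast cell list to at most 15.4.

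Ribosomal protein genes took a smaller share of the reads in CIII than in VEH libraries of F4/80hi macrophages. The share was 3.94%, 2.26% and 2.06% in VEH numbers 1, 2 and 3, and 1.67%, 1.29% and 0.945% in CIII numbers 1, 2 and 3. All 3 CIII libraries lay below all 3 VEH libraries, with means of 2.75% ± 1.04 and 1.3% ± 0.36 (SD, n = 3). In F4/80lo macrophages the share was 3.23%, 2.26% and 1.16% in VEH and 2.22%, 1.83% and 1.23% in CIII, so that the treatments overlapped, with means of 2.22% ± 1.03 and 1.76% ± 0.5. In all 4 groups library number 1 had the highest share and number 3, in which Gm42418 took the most reads, the lowest. The part of Gm42418 in these shares was not tested. Because these are bulk libraries, fewer cells rich in these mRNAs and less of these mRNAs per cell cannot be told apart.

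**Figure D1:**
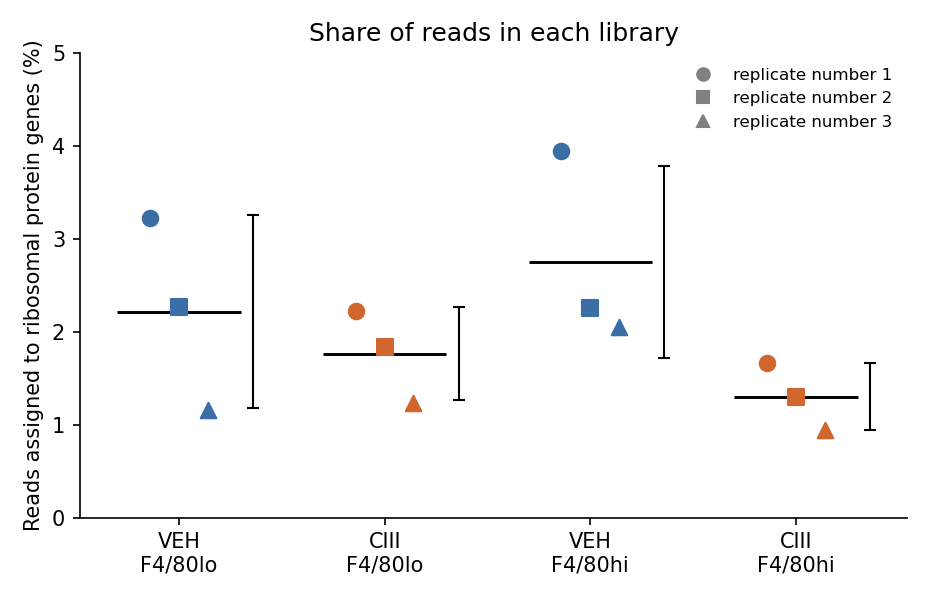
Percent of reads on genes that were assigned to the 83 ribosomal protein genes of each subpopulation, 1 point per library with the replicate number as the marker; lines are means and error bars SD (n = 3). In F4/80hi the CIII libraries lie between 0.945% and 1.67% and the VEH libraries between 2.06% and 3.94%, whereas in F4/80lo the 2 treatments overlap.

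In F4/80hi cells all 83 members had a negative log2 fold change (82 when libraries were scaled to all genes, 81 by edgeR or DESeq2, 80 after correction for transcript length), but no single member passed the adjustment over all 10499 genes tested. The median log2 fold change of the members was −1.14, with quartiles of −1.42 and −0.97, while the median of all genes tested was 0.05. Before adjustment 38 of the 83 members had p under 0.05 in limma's test, all 38 lower in CIII, where 2.65% of all genes tested were lower with such a p. By edgeR and DESeq2 38 and 47 members were lower with such a p, against 2.71% and 2.98% of all genes, and 0 passed the adjustment by either. The smallest Benjamini-Hochberg adjusted p among the members was 0.992 (limma, 3 libraries against 3). With the replicate number as a block, 74 members had p under 0.05 and were lower, against 6.24% of all genes, and the smallest limma adjusted p was 0.0689, that of Rpl41, the lowest value over all alternatives, which reached up to 1.00. The 3 CIII values lay below the 3 VEH values for 40 members and above them for none, where 5.76% of all genes were lower without overlap. For a single gene an exact permutation test of 3 against 3 libraries cannot go below p = 0.1.

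The direction held within each replicate number. Median differences of CIII minus VEH were −1.27 for number 1, −0.77 for number 2 and −1.40 for number 3 on the log2 scale, with 82, 81 and 82 of the 83 members lower, and the medians of all genes were between 0.00 and 0.04. All 3 numbers were lower for 80 members, against 16.6% of all genes tested. The exceptions, named after their values were seen, were Rpl10, Rpl7a and Rpl3l. Without the libraries numbered 3, 82 members were lower and 36 had p under 0.05, against 3.51% of all genes. Leaving out VEH number 1, the library with the highest share, gave a median of −0.87 and 13 members with p under 0.05 (0.981% of all genes), and leaving out CIII number 3, the library with the lowest share, gave −0.86 and 21 members (1.67%).

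**Figure D2:**
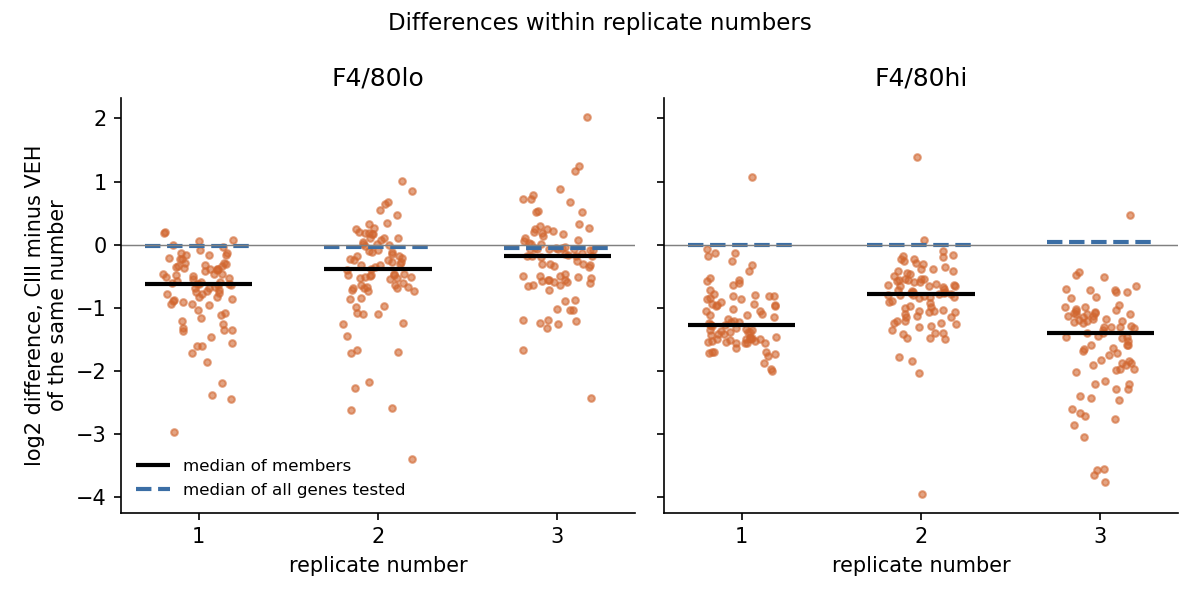
Difference of the log2(normalized count + 1) values between the CIII and the VEH library with the same replicate number, 1 point per ribosomal protein gene (83 in each panel); black lines are the medians of these genes and dashed lines the medians of all genes tested. In F4/80hi the medians are −1.27, −0.77 and −1.40 in the 3 numbers, and in F4/80lo −0.62, −0.39 and −0.18.

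In F4/80lo cells the values of the members were lower by less and their treatments mostly overlapped. The median log2 fold change was −0.39, with quartiles of −0.74 and −0.20, and the median of all 10718 genes tested was −0.05. Of the 83 members 67 were lower and 16 higher, and 7 had p under 0.05, all 7 lower, where 1.61% of all genes were lower with such a p. No member passed the adjustment (smallest adjusted p = 1.00, limma), nor did any by edgeR or DESeq2, with which 10 and 9 members were lower with p under 0.05, against 1.71% and 1.59% of all genes. Blocked by replicate number, 23 members had p under 0.05, all lower, against 3.85% of all genes, with a smallest limma adjusted p of 0.472, where the alternatives gave 0.118 to 1.00. CIII lay below VEH without overlap for 9 members and above for none, against 4.92% of all genes that were lower without overlap. Within the numbers 79, 60 and 56 members were lower, 45 of them in all 3 numbers, against 15.7% of all genes.

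The F4/80lo values moved with single libraries. Without VEH number 1 the median was −0.10, 51 members were lower and 0 had p under 0.05 (0.616% of all genes were lower with such a p), while without VEH number 3, the library with few MHC class II reads, the median was −0.80, 81 members were lower and 28 had p under 0.05 (3.44% of all genes). The count was 4 without CIII number 2 (1.28%) and 2 without CIII number 3 (2.28%), the latter with a median of −0.18. Without both libraries numbered 3 the median was −0.48, with 16 members at p under 0.05 (2.9%).

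Each of the 10 members with the smallest p in F4/80hi cells had an unadjusted limma p under 0.05 and an adjusted one of 0.992 or more. Among them, the paralogue Rps27l, a p53 target related to the 40S protein gene Rps27, came first. Rps27l (ENSMUSG00000036781, chromosome 9, 66946086 to 66949516, plus strand, GRCm38) had 247, 144 and 194 normalized counts in VEH and 75.1, 72.1 and 48.7 in CIII libraries of F4/80hi cells. Its log2 fold change was −1.55 ± 0.355 (SE; adjusted p = 0.992), a level 2.94 times lower in CIII, and −0.92 after the correction for coding length described below. The F4/80lo libraries had 163, 130 and 134 counts in VEH and 88.7, 84.5 and 65.2 in CIII, a log2 fold change of −0.84. The treatments did not overlap in either subpopulation. Its relative Rps27 had 312, 99.3 and 153 counts in VEH and 119, 88.9 and 54.7 in CIII libraries of F4/80hi cells, which overlap, but none of the 75-base windows at its 3′ end was unique to it.

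Rpl39, Rpl37 and Rpl38 encode very small proteins of the 60S subunit. Rpl39, which lines the tunnel through which the new protein leaves, had 285, 153 and 276 counts in VEH and 96.7, 69.7 and 67.3 in CIII libraries of F4/80hi cells (log2 fold change −1.56 ± 0.365). Rpl37 had 766, 470 and 562 in VEH and 266, 213 and 262 in CIII (−1.25 ± 0.332). Rpl38, a protein known for its effect on the translation of Hox mRNAs, had 407, 169 and 401 in VEH and 146, 72.1 and 75.5 in CIII (−1.69 ± 0.454). The highest CIII value lay below the lowest VEH value in all 3 genes, closest in Rpl38. After the correction for coding length described below these values were −0.75 for Rpl39, −0.68 for Rpl37, whose unadjusted p was then above 0.05, and −0.99 for Rpl38. In F4/80lo cells Rpl37 had 525, 393 and 217 counts in VEH and 402, 366 and 315 in CIII, and the treatments overlapped for Rpl39 and Rpl38 too.

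Rpl8, a core protein of the peptidyl transferase centre, was the most even of the leading genes. It had 456, 489 and 472 counts in VEH and 235, 207 and 232 in CIII libraries of F4/80hi cells, a log2 fold change of −1.07 ± 0.296, and its range on leaving out 1 library was −1.10 to −1.01. Its F4/80lo libraries had 536, 470 and 422 counts in VEH and 521, 413 and 371 in CIII, with a log2 fold change of −0.14. Rpl32, another 60S protein, had 824, 442 and 426 counts in VEH and 264, 233 and 182 in CIII of F4/80hi cells (−1.26, or −0.81 after the length correction).

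Rpsa, Rps26 and Rps12 belong to the 40S subunit. Rpsa, also known as the laminin receptor precursor, had 150, 115 and 117 counts in VEH and 69.3, 44.5 and 54.7 in CIII libraries of F4/80hi cells (log2 fold change −1.18). Rps26, which contacts mRNA upstream of the start codon, had 1221, 695 and 826 in VEH and 476, 312 and 258 in CIII (−1.39). Rps12 had 636, 534 and 422 in VEH and 217, 255 and 170 in CIII (−1.31), but only 6.19% of its 3′ windows are unique to it. None of these 3 genes overlapped between treatments in F4/80hi cells, and after the length correction Rps26 had −0.88 and Rps12 −0.85.

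**Figure D3:**
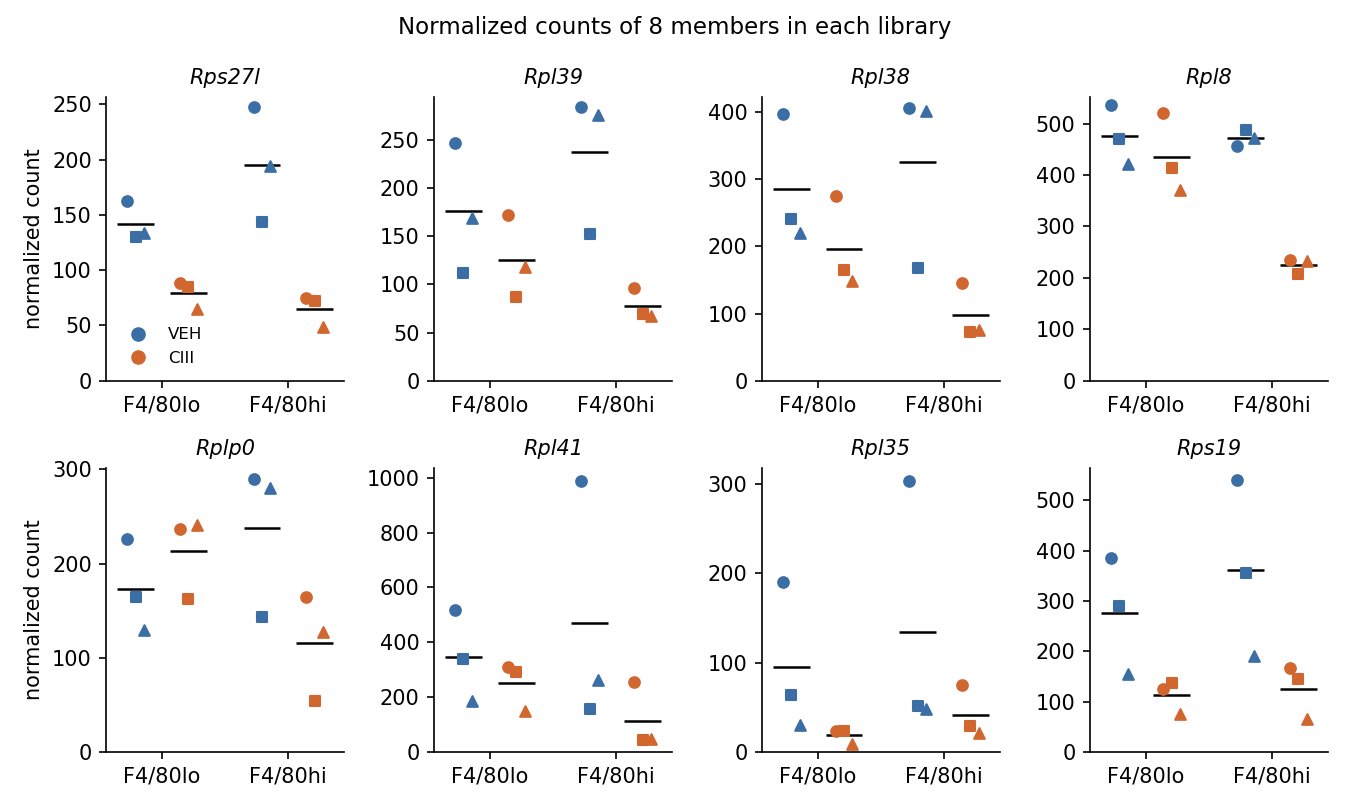
Normalized counts of 8 ribosomal protein genes, 1 point per library (circle, square and triangle for replicate numbers 1, 2 and 3; VEH blue, CIII orange), with lines at the means of 3 libraries; each vertical axis starts at 0. For Rps27l, Rpl39, Rpl38 and Rpl8 the CIII points of F4/80hi lie below all VEH points, and for Rplp0 and Rpl41 the treatments overlap.

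Rpl28, a 60S protein with no bacterial counterpart that was picked out after its values were seen, had the largest difference in F4/80hi cells at −3.03 ± 1.39 (SE), with 158, 14.4 and 49.3 counts in VEH and 59.9, 0 and 2.74 in CIII, and leaving out 1 library moved it between −4.69 and −1.72. It was lower within all 3 numbers, although its treatments overlapped, and its unadjusted p was above 0.05 without the replicate block and under it with the block. Rpl41, which encodes one of the smallest proteins known in mammals, had 989, 157 and 263 counts in VEH and 253, 43.3 and 47 in CIII. Its treatments overlapped as well, because library number 1 was high in both, but within the numbers its differences were −1.96, −1.83 and −2.46. Rpl41 therefore had the smallest p of all members with the replicate block (limma adjusted p = 0.0689), and an adjusted p of up to 1.00 under the other alternatives. The log2 fold change of Rpl41 was −2.08, and −1.15 after the correction for coding length described below. The unadjusted limma p of Rpl41 was then above 0.05.

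The 5 members with the highest counts in F4/80hi cells were also lower in CIII. Rps20 had 1360, 704 and 1137 counts in VEH and 481, 465 and 635 in CIII, without overlap. Rps9, a protein at the entry of the mRNA channel, had 1335, 977 and 747 in VEH and 552, 627 and 446 in CIII, also without overlap. Rps21 had 1443, 516 and 1371 in VEH and 551, 376 and 457 in CIII, and Rps29 had 1258, 406 and 1253 in VEH and 455, 346 and 539 in CIII, and in both the lowest VEH value, that of number 2, lay inside the CIII range. Rpl4, whose extended arm reaches into the exit tunnel, had 1104, 1244 and 404 in VEH and 518, 447 and 195 in CIII, which overlap. The log2 fold changes were −0.98 for Rps20, −0.88 for Rps9, −1.14 for Rps21, −0.97 for Rps29 and −1.20 for Rpl4. After the correction for coding length described below they were −0.48, −0.60, −0.51, −0.19 and −1.24 in that order. Only Rpl4 then had an unadjusted limma p under 0.05. The log2 fold changes in F4/80lo cells were 0.02 for Rps20, 0.12 for Rps9 and −0.07 for Rps21. Rpl26 and Rps26, the other genes with the highest counts there, had values of −0.30 and −0.60. The treatments overlapped for all 5 of these genes in F4/80lo cells.

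The 10 members with the smallest p in F4/80lo cells were other genes, apart from Rps27l and Rpl32, and all had an adjusted p of 1.00 (limma). Rpl35, a protein at the rim of the exit tunnel, had 190, 64.2 and 30.3 counts in VEH and 23.4, 22.8 and 8.84 in CIII, a log2 fold change of −2.03 ± 0.652 (SE), although only 4.42% of its 3′ windows are unique to it. Rps19, the gene most often mutated in Diamond-Blackfan anaemia, had 385, 290 and 156 in VEH and 126, 137 and 75.2 in CIII (−1.24 ± 0.415). Rps19 was also lower without overlap in F4/80hi cells, at 541, 355 and 190 in VEH and 167, 145 and 65.6 in CIII. Rps4x, the X-linked 40S protein, had 105, 55.2 and 46 in VEH and 37.6, 22.8 and 28.7 in CIII of F4/80lo cells (−1.12).

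Of the other leading genes in F4/80lo cells, Rpl17, a tunnel-rim protein, had a log2 fold change of −1.53, Rpl19 −0.94, Rpl9 −0.75, Rpl36al −1.19 and Rpl32 −0.83. Rps6, the target of S6 kinase, had 36.1, 33.4 and 4 counts in VEH and 7.09, 2.28 and 1.11 in CIII (−2.28), and in F4/80hi cells 31.9, 15.7 and 8.38 in VEH and 13, 9.61 and 1.09 in CIII (−1.35). These are few reads for a protein present once per ribosome, and 18.6% of its 3′ windows are unique. Rpl7l1, Rpl9, Rps19, Rps19bp1 and Rps27l were the 5 members whose CIII values lay below the VEH values without overlap in both subpopulations. Of all genes 4.92% in F4/80lo and 5.76% in F4/80hi cells were lower without overlap, and the share in both was not counted. Whether 5 members are more than among other genes was therefore not tested. No member of either subpopulation was higher with p under 0.1.

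The response to CIII was less negative in F4/80lo than in F4/80hi cells for 75 of 82 members. The median of the difference, F4/80lo minus F4/80hi, was 0.77 on the log2 scale against −0.09 over the 10097 genes tested in both, of which 44.1% had a positive difference. The members with p under 0.05 for this difference numbered 3, where 1.71% of all genes had such a p in either direction, and with the replicate block 34, against 5.34%. None passed the adjustment (smallest adjusted p = 0.999, and 0.898 with the block, limma). The 5 members with the smallest p were Rpl37 with a difference of 1.27 ± 0.489 (SE), Rpl8 with 0.93 ± 0.377, Rplp0 with 1.42 ± 0.606, Rps10 with 1.03 and Rps20 with 0.995, the last 2 with p above 0.05 without the block and under it with the block. The median was 0.41 without VEH number 3 of F4/80lo, 0.46 without VEH number 1 of F4/80hi and 0.51 without CIII number 3 of F4/80hi. In these runs 13, 14 and 18 of the 82 members lay in the other direction. Without all libraries numbered 3 the median was 0.56, with 20 members in the other direction. After the corrections for coding and transcript length described below it was 0.52 and 0.43, with 14 and 18 of the 82 members in the other direction in place of 7. The count of 3 moved between 0 and 15 on leaving out 1 of the 12 libraries, being 0 without VEH number 3 of F4/80lo or CIII number 2 of F4/80hi, and 15 without VEH number 1 of F4/80lo. It was 1 without CIII number 1 of F4/80lo or VEH number 1 of F4/80hi, 14 without VEH number 2 of F4/80hi, 8 without CIII number 3 of F4/80lo, 7 without CIII number 1 of F4/80hi and 5 without CIII number 3 of F4/80hi. Over all genes the share with such a p was 1.21% to 3.15% on leaving out 1 library.

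**Figure D4:**
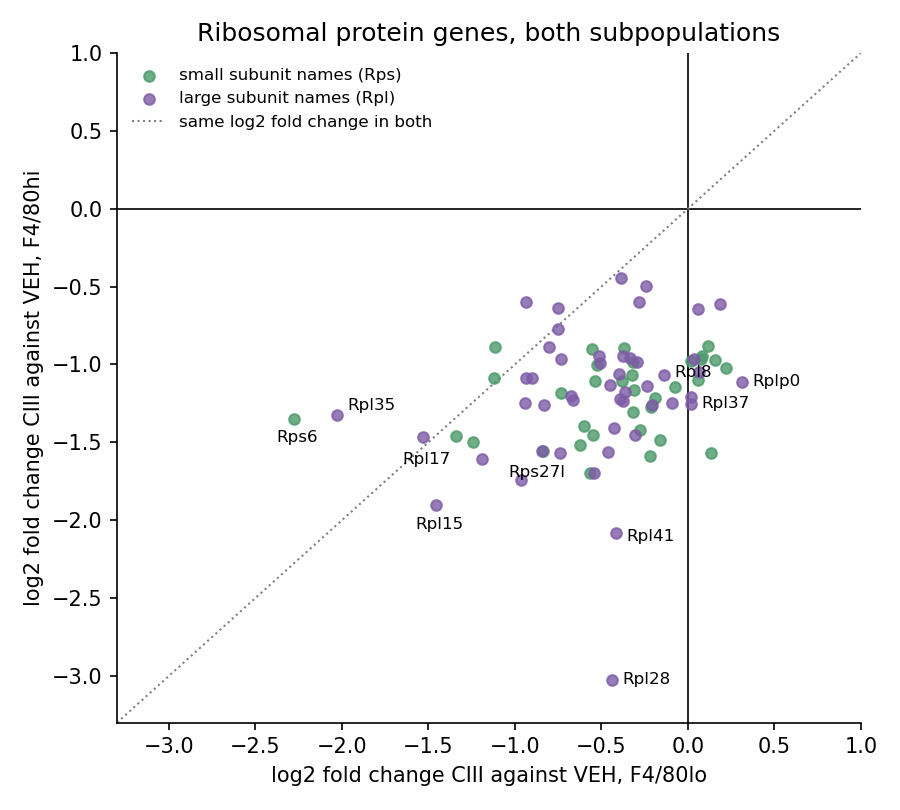
Log2 fold change of CIII against VEH (on normalized count + 1) in F4/80lo (horizontal) and F4/80hi (vertical) cells for the 82 genes that were members in both, coloured by subunit; the dotted line marks equal changes. All points lie below 0 on the vertical axis, and 75 of the 82 lie below the dotted line.

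The 34 small subunit members had a median log2 fold change of −1.15, with 20 at p under 0.05, and the 49 large subunit members one of −1.14, with 18. With the replicate block these counts were 32 and 42, and after the correction for coding length 10 and 8, where 2.65%, 6.24% and 1.4% of all genes were lower with such a p. Among F4/80lo members the medians were −0.32 with 4 at p under 0.05 and −0.43 with 3, or 8 and 15 with the block, against 1.61% and 3.85% of all genes. The difference between the subunits was not tested. The 56 members with a mean of at least 100 counts in F4/80hi cells had a median of −1.21, with 36 at p under 0.05, and the 27 with fewer counts one of −1.09, with 2, and the counts were 56 and 18 with the block and 17 and 1 after the length correction, against the same shares of all F4/80hi genes.

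Members were also grouped by their place in the ribosome. Of the proteins that line the mRNA entry, Rps3 and Rps9 had p under 0.05 in F4/80hi cells, with 632, 370 and 503 counts of Rps3 in VEH and 306, 250 and 197 in CIII, whereas Rps2 overlapped at 225, 196 and 83.8 in VEH and 127, 81.7 and 17.5 in CIII (−1.42) and had such a p with the replicate block but not without it. The stalk proteins, which recruit elongation factors, had log2 fold changes of −1.11 for Rplp0, −0.98 for Rplp1 and −1.41 for Rplp2. Without the block Rplp0 and with it all 3 had an unadjusted p under 0.05 in F4/80hi cells. After the correction for coding length described below the values were −1.03, −0.47 and −0.90, none with such a p. Leaving out 1 library moved Rplp0 between −1.44 and −0.64, Rplp1 between −1.41 and −0.67 and Rplp2 between −2.30 and −0.71. In F4/80lo cells Rplp0 was one of the 16 higher members, at 226, 164 and 130 counts in VEH and 236, 162 and 241 in CIII. Rpl5 and Rpl11, which form the 5S particle and bind MDM2 when ribosome assembly fails, had −1.13 and −0.97 in F4/80hi cells, and −0.45 and 0.03 in F4/80lo cells. The 8 proteins listed around the tunnel exit were all lower in both subpopulations, 5 of them with p under 0.05 in F4/80hi and 3 in F4/80lo cells (8 and 5 with the block, and 2 in each after the length correction, against 2.65%, 6.24% and 1.4% of all genes in F4/80hi and 1.61%, 3.85% and 1.5% in F4/80lo cells), with medians of −1.28 and −0.70, or −0.78 and −0.52 after that correction.

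Both genes of each measured paralogue pair had negative log2 fold changes in F4/80hi cells, except that Rpl3l had no direction (−0.01 ± 1.02, SE). Its mean count was 2.46 in VEH and 3.90 in CIII. Rpl22, which binds a viral small RNA and is needed for T cell development, had −0.96 in F4/80hi cells, and its paralogue Rpl22l1 −0.61 with overlapping treatments. Rpl7 and Rpl7l1 were both below VEH without overlap in F4/80hi cells, at −0.64 and −0.60. Rpl36a had −1.23 and Rpl36al −1.61, the latter moving between −2.40 and −0.62 on leaving out 1 library. Rpl3 had −0.50 and Rpl3l −0.01, the latter at 2.66, 2.61 and 2.1 counts in VEH and 0, 8.41 and 3.28 in CIII. Rps4x had −0.89, and Rps4l, annotated as a transcribed processed pseudogene and so no member, −0.90. Rpl10 had none of its 3′ windows unique, and its differences within the numbers were 1.07, −0.20 and −2.67.

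Several members are known for roles outside translation. Rpl13a, released from the ribosome under interferon gamma to silence inflammatory mRNAs, had 923, 449 and 419 counts in VEH and 327, 318 and 134 in CIII (log2 fold change −1.21), and in F4/80lo cells 674, 537 and 225 in VEH and 464, 676 and 269 in CIII (0.02). Rps27a, made as a fusion to ubiquitin, had 487, 252 and 224 in VEH and 191, 161 and 33.4 in CIII of F4/80hi cells (−1.57), with 14.6% of its windows unique, and 0.13 in F4/80lo cells. Rps19bp1 had 17.3, 20.9 and 41.9 in VEH and 10.1, 12 and 10.9 in CIII of F4/80hi cells (−1.11).

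Rack1 and Fau, ribosomal genes outside the rule on symbols, lay in the same direction in F4/80hi cells. Rack1, a 40S scaffold for kinases, had 1174, 839 and 940 counts in VEH and 534, 544 and 447 in CIII of F4/80hi cells (log2 fold change −0.94), without overlap, and −0.02 in F4/80lo cells. Fau, which encodes S30 fused to a ubiquitin-like protein, had −1.06 in F4/80hi cells and −1.02 in F4/80lo cells.

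Lists around the ribosome are given with their values in F4/80hi cells, where no gene of any list passed the adjustment. Over all 10499 genes 4879 were lower, 2.65% were lower with p under 0.05 and 6.24% when blocked by number, and whether a list differed from other genes was not tested. Of 40 ribosome biogenesis genes, 27 were lower and 2 had p under 0.05, both lower (4 with the block), with a median log2 fold change of −0.21. These 2 were Nhp2 (−1.17) and Rrp9 (−2.06), and the third by p was Gar1 (−1.09). Npm1, a nucleolar chaperone of ribosome assembly, had 254, 317 and 227 counts in VEH and 188, 190 and 150 in CIII, without overlap (−0.59). Of 29 translation factors and other TOP mRNAs 24 were lower and 5 had p under 0.05, all lower (9 with the block), with a median of −0.46. Eif3i, a subunit of the factor that brings the 40S subunit to mRNA, had 114, 74.5 and 107 counts in VEH and 29.6, 34.9 and 44.9 in CIII (−1.41), Eef1b2 −1.04 and Eif3k −0.82. The elongation factor genes Eef1a1 and Eef2, both TOP mRNAs, had −0.86 and −0.24.

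Of the 14 tested of 15 listed growth signalling genes, 8 were lower, none of them with p under 0.05, with a median of −0.09 in F4/80hi cells. The 1 gene with p under 0.05 was Tsc1, a brake on mTOR, which was higher at 19.9, 30 and 45.1 counts in VEH and 62.1, 73.3 and 62.4 in CIII, without overlap (1.10). Over all 10499 genes 135 were higher with p under 0.05 in limma's test, and 497 were higher without overlap. Myc, which drives ribosome biogenesis, had 14.6, 28.7 and 2.1 counts in VEH and 25.3, 8.41 and 0 in CIII, and Eif4ebp2, an inhibitor of cap-dependent initiation, had −0.69 with overlapping treatments. Of 9 snoRNA host genes 6 were lower, 0 had p under 0.05 and the median was −0.07, with −0.54 for Snhg8, −0.28 for Gas5 and 0.46 for Snhg12.

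Mitochondrial lists are given for comparison. Of 74 tested mitochondrial ribosomal protein genes 66 were lower in F4/80hi cells, 10 with p under 0.05 (18 with the block), with a median of −0.53, led by Mrpl42 (−1.36), Mrpl28 (−1.43) and Mrps18c (−1.28). Of 74 tested respiratory chain and ATP synthase genes 72 were lower, 35 with p under 0.05 (56 with the block), with a median of −0.94, led by Atp5k (−1.44), Ndufc1 (−1.61) and Uqcr10 (−1.39). After the correction for coding length described below, the lists had 2 and 8 genes lower with p under 0.05 (1.4% of all genes) and medians of −0.30 and −0.60. The F4/80lo medians were −0.37 for 73 mitochondrial ribosomal protein genes and −0.33 for 74 respiratory chain genes. Whether the cytoplasmic ribosomal protein genes differed from these lists was not tested.

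Gene length moved with the response. Most ribosomal protein genes have short coding sequences, 67 of 83 in F4/80hi cells having under 700 bases. Among other protein-coding genes of F4/80hi cells the median log2 fold change was −0.62 under 300 coding bases, −0.42 from 400 to below 500, −0.11 from 700 to below 1000 and 0.28 from 2000 on, and the rank correlation with coding length was 0.38 over 9582 genes, and 0.411 over the 83 members. The members lay below these other genes of like length in each class that held both, with medians of −1.25, −1.21 and −1.07 in the first 3 of these classes. Other genes of F4/80lo cells had medians from −0.25 under 300 bases to 0.00 from 1000 to below 2000. After each library was corrected for a trend on coding length, set on the genes that are no members and added after the data were seen, the median of the members was −0.81 in F4/80hi cells with 83 of 83 lower and 18 at p under 0.05, where 1.4% of all genes were lower with such a p. In F4/80lo cells it was −0.25 with 63 of 83 lower and 5 at p under 0.05, against 1.5%. With transcript length in place of coding length the count in F4/80hi cells was 16 (1.24% of all genes), with 80 of 83 lower and a median of −0.76. The part of length in the response was not tested beyond these corrections.

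**Figure D5:**
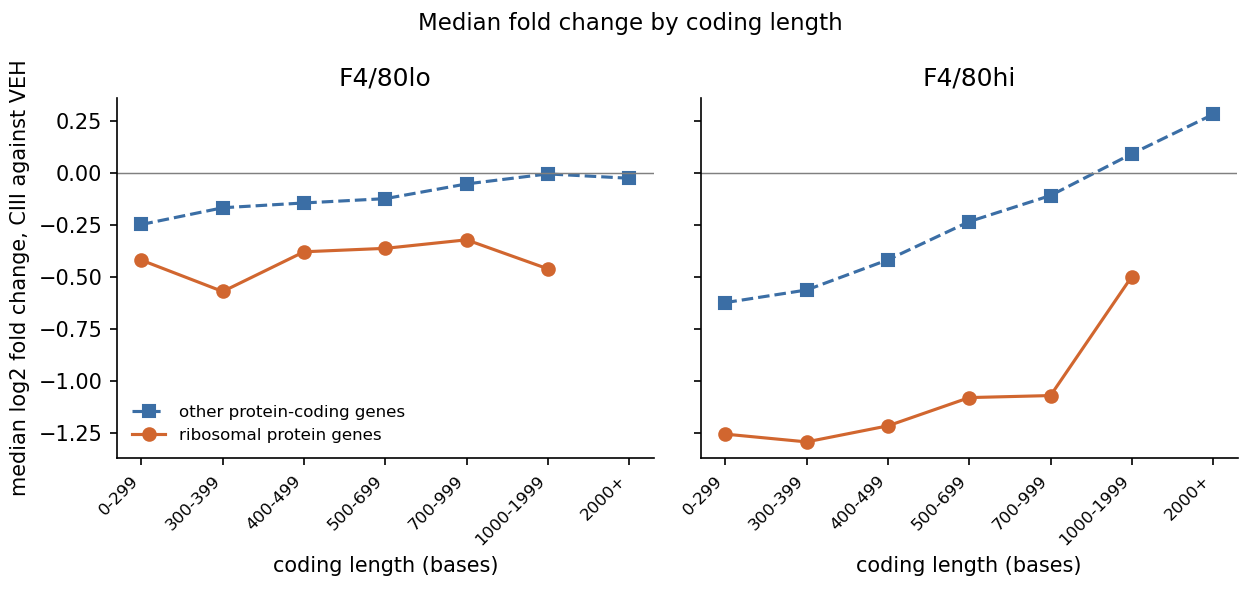
Median log2 fold change of CIII against VEH by class of coding length (bases), for ribosomal protein genes (circles) and all other protein-coding genes tested (squares, dashed). In F4/80hi the other genes go from −0.62 in the shortest to 0.28 in the longest class, and the ribosomal protein genes lie below them in each class that holds any.

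Reads of these genes can be split among near-identical copies, since many processed pseudogenes derive from them. Of the 86 names, 33 had all 75-base windows of their last 300 transcript bases unique among annotated transcripts, 34 had under 50% unique, and 4 (Rpl10, Rpl36a, Rpl9 and Rps27) had none. In F4/80hi cells the 50 members with at least 50% unique windows had a median log2 fold change of −1.18 with 28 at p under 0.05, and the 33 others −1.09 with 10, or 47 and 27 with the replicate block and 14 and 4 after the length correction, where 2.65%, 6.24% and 1.4% of all genes were lower with such a p. The F4/80lo values were −0.40 with 3 of 49 and −0.39 with 4 of 34, or 14 and 9 with the block, against 1.61% and 3.85% of all genes. Pseudogenes named for ribosomal proteins took 0.0508% to 0.117% of reads in VEH and 0.0190% to 0.0496% in CIII libraries of F4/80hi cells, without overlap, and 38 of their 39 tested rows were lower, with a median of −1.05. Leaving out Rps19bp1, Rpl7l1, Rpl3l and Rps27rt, the names least certain to be parts of the ribosome, left 79 genes in F4/80hi cells, with a median of −1.18 and 38 at p under 0.05, or 73 with the block.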

How the data were processed

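Libraries of mRNA from F4/80lo and F4/80hi macrophages on day 6 of peritonitis, 3 per treatment, were used. The authors prepared 3′ libraries with unique molecular identifiers, sequenced 75 cycles, trimmed with Bbduk, aligned to GRCm38 with STAR, collapsed identifiers, counted reads per gene with HTSeq-count and scaled them with DESeq2 (versions not given in the sources used here). The values deposited by the authors have the unit of a signal, reads per gene divided by 1 size factor per library, with the factors set separately in each subpopulation. All values (100%) were whole multiples of 1 read within a tolerance of 0.01, so whole reads were recovered for edgeR and DESeq2 as alternatives. Because 1 read is made per transcript end, values are not scaled to gene length.

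Symbols, coordinates and lengths came from GENCODE M21 (GRCm38), which matched 47224 of 47643 identifiers. Genes averaging 3 or more normalized counts were tested with limma 3.58.1 (R 4.3.3; eBayes with trend, two-sided) on log2(normalized count + 1), with Benjamini-Hochberg adjustment over all genes of the subpopulation. A fold change on this scale understates that of genes with few counts. Differences between responses were tested over the 12 libraries. The scripts were tested on simulated data. Members and gene lists were chosen with earlier results of these data known, so that a smaller value in CIII is not independent support. Named were the 10 members with the smallest p and the 5 with the highest counts in each subpopulation, members higher with p under 0.1, the 5 with the smallest p for the difference, fixed pairs and roles, and the 3 first genes of each list by p in F4/80hi, apart from genes not reported here.

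Same-numbered VEH and CIII libraries deviated together from their treatment means over all tested genes, with correlations of 0.121, 0.238 and 0.504 for the F4/80lo pairs. The F4/80hi pairs had 0.216, 0.412 and 0.639. All were above 0.1, so the numbers were taken to pair the libraries and the blocked counts are given beside those they move. The labels do not state what the numbers stand for. VEH number 1 correlated more with CIII number 2 (0.171 and 0.285) than with number 1.

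Depth ran from 426624 to 3389448 reads on genes. A count of 0 allows up to 3 reads, for counting error only. Other assays of the study were not analysed here.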

Additional observations from a re-analysis of the deposited data

Results flagged for a closer look

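For 3 members the CIII response differed between F4/80lo and F4/80hi cells with an unadjusted limma p under 0.05, and none of the 3 passed the adjustment (adjusted p = 0.999). Rpl37 had a log2 fold change of 0.02 in F4/80lo and −1.25 in F4/80hi cells, a difference of 1.27. Rpl8 had −0.14 and −1.07, a difference of 0.93. Rplp0 had 0.31 and −1.11, a difference of 1.42. Over all 10097 genes tested, 1.71% had such a p.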

How the results depend on the processing

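No member passed the adjusted threshold in any of the alternatives. The count of members with p under 0.05 in F4/80hi (38) became 74 with the replicate block, 18 and 16 after correction for coding and transcript length (alternatives chosen after the data were seen), and 13 to 54 on leaving out 1 library, while that share of all genes went from 2.65% to 6.24%, 1.4% and 1.24%, and to between 0.981% and 4.88%. Their median of −1.14 became −0.81 and −0.76 after the length corrections and stayed between −1.38 and −0.86 without 1 library. The 40 members without overlap became 30 under either scaling, 29 and 28 after the length corrections and 40 to 66 without 1 library. The count over all F4/80hi genes that were lower without overlap was 605 at first. It went to 419 when scaled to all genes and 436 when scaled to genes that are no members. After the length corrections it was 476 and 483, and without 1 library between 902 and 1563. In F4/80lo the count of 7 became 23 with the replicate block, 22 with array weights, 16 without the libraries numbered 3, 3 among members with mostly unique 3′ ends (also added after the data were seen) and 0 to 28 without 1 library, while the share of all genes lower with such a p went from 1.61% to 3.85%, 6.03% and 2.9% under the first 3 and to between 0.616% and 3.44% without 1 library. Their median of −0.39 ranged from −0.80 to −0.10 without 1 library. The 9 members without overlap became 4 when libraries were scaled to all genes or to genes that are no members, 40 without the libraries numbered 3 and 9 to 39 without 1 library. Under both scalings the F4/80lo count over all 10718 genes that were lower without overlap went from 527 to 395. With fewer libraries groups overlap less by construction, and the F4/80lo count over all genes went from 527 to 2011 and to between 876 and 1412. The count of 3 for the difference became 34 with the replicate block, 5 with array weights or without the libraries numbered 3, 7 with DESeq2 and 0 to 15 without 1 library, against 1.71% of all genes at first and 5.34%, 4.92%, 3.22% and 1.91% under those alternatives. Scaling to all genes moved the median of all genes in F4/80hi from 0.05 to 0.15 and that of the members to −1.03. For the change with the replicate block and the array weights the cause was not tested. Of the 7 and 38 members with p under 0.05 none changed sign in any alternative. With 426624 reads in the shallowest library, members with few counts such as Rpl24, Rps3a1 and Rps27rt are measured with little precision.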
